A study of Homo sapiens with 9 samples.

Results

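The comparison described here is that of MDA-MB-231 cells that survived RSL3 (RSL3-R) with vehicle cells given DMSO, across all genes. The 39 PI3K-AKT and MAPK pathway genes that the study drew as heatmaps are not named here but stay in the fits and in the counts. Libraries were chosen by their treatment label, which gave 3 RSL3-R and 3 vehicle libraries, 6 of the 9 in the series. The other 3 libraries came from cells that survived erastin (erastin-R) and are used only to show where the RSL3-R cells differed. MDA-MB-231 is an established line of triple-negative breast cancer cells with a mesenchymal, basal-like phenotype, and the labels name no engineered allele in any group. The sample labels name the agent but give neither its dose nor the time of exposure, and the study describes the cells as survivors of increasing concentrations. Nothing in the labels says that the 3 libraries of a group came from separate cultures, so the p values measure only the spread between these libraries. The study sequenced these cells to look for genes that go with resistance to ferroptosis.

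Ferroptosis is an iron-dependent death in which peroxides of polyunsaturated phospholipids build up in membranes. GPX4, a selenoprotein, reduces these peroxides with glutathione, and glutathione in turn needs cysteine, which many tumour cells take up as cystine through SLC7A11. RSL3 binds GPX4 directly, whereas erastin blocks cystine uptake, so the 2 agents reach the same defence at different steps. Shortage of amino acids and other stresses raise translation of the transcription factor ATF4, which induces genes of amino acid uptake, amino acid synthesis and tRNA charging, often through a promoter sequence called the CARE.

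Total counts were 16344940 to 16837694 per vehicle library and 15513592 to 17273464 per RSL3-R library. Log2 CPM (CPM are counts scaled by edgeR's TMM library size) correlated at 0.9914 to 0.9924 across genes between libraries of a group and at 0.9681 to 0.9695 between RSL3-R and vehicle libraries. Reads on mitochondrial genes were 7.97% to 8.93% of the total in vehicle and 9.52% to 10.2% in RSL3-R libraries. The erastin-R libraries were less alike, with 7.95% in replicate 1 and 5.55% and 5.84% in replicates 2 and 3. All 8 markers of the mesenchymal line, among them VIM, CD44 and AXL, were present in every library, and their summed level was 6213 to 6340 CPM over the 6 libraries. Within this sum CAV1, CD44 and LGALS1 were lower in RSL3-R cells (log2 fold changes -0.86, -0.43 and -0.25). AXL and S100A6 were higher (0.40 and 0.27), each of these at an adjusted p under 0.05. ESR1, PGR and TFF1 of luminal epithelium, CD3E of T cells, LUM and COL3A1 of fibroblasts and CDH5 of endothelium had at most 12 counts in any library. Other markers of the same lists were present. The highest counts were 5204 for KRT8, 3103 for KRT18 and 103 for GATA3 (luminal), 205 for COL1A1 (fibroblasts) and 222 for PECAM1 (endothelium). The 4 leukocyte markers summed to 12 to 15 CPM in vehicle and 6.71 to 7.01 CPM in RSL3-R libraries, with CSF1R at a log2 fold change of -2.04. The general leukocyte marker PTPRC was at 1.67 (adjusted p = 0.00818), from low levels of at most 24 counts in any of the 6 libraries. The part of such cells in the results was not tested. In bulk RNA, fewer cells that express a gene and less of its RNA per cell cannot be told apart.

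In what follows a gene "rose" or "fell" where its adjusted p was under 0.05 (edgeR's quasi-likelihood test with Benjamini-Hochberg adjustment over 16188 genes), and it was "differentially expressed" where the log2 fold change was also at least 1 in size. By the first rule 48.7% of all genes changed in RSL3-R cells, 23.8% rising and 24.9% falling. By the second, 6.02% were differentially expressed and higher (975 genes) and 4.08% lower (660 genes), 10.1% in all, and the median log2 fold change of all genes was 0.01. Of the differentially expressed genes, 155 were at least 4-fold higher and 41 at least 4-fold lower. The 3 RSL3-R values lay outside the range of the 3 vehicle values for 1605 of 1635. These genes were selected for a difference between the same libraries, so that count follows largely from the selection and is no separate support. The 38 hand-written gene lists hold 1004 genes, of which 932 were tested, and are described by their counts and medians against these shares of all genes. Between 20.7% and 62.4% of the exon length of IL6, SQSTM1, IL21R, ICAM1, MCM2, KHK, VIM and FTH1 overlaps a gene on the opposite strand, whose reads cannot be told apart from theirs. Of the 50-base words in their transcripts, ATF4 shares 17.9%, FTL 18.3%, FTH1 19.9% and MT-CO1 49.5% with other genes, so their levels are uncertain.

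Windows around a pair of promoter sequences are shown first, for members of the lists described below that held a match and changed most. The sequences are RefSeq promoters on GRCh38.p14, read 5′ to 3′ on the strand of the gene, within 250 bases upstream of the gene start, and 10808 of the tested genes had one. The core of the CARE was searched as TGATGNAA on both strands, and 1.5% of these promoters held it. It was held by 2 of 9 differentially expressed ATF4 stress factors with a promoter, by 1 of 6 enzymes of amino acid and one-carbon metabolism, by 2 of 7 aminoacyl-tRNA synthetases and by 0 of 5 amino acid transporters. Among all tested members of these lists with a promoter, changed or not, it was held by 2 of 14, 3 of 14, 2 of 16 and 1 of 17. Capitals mark the match, as TGATGNAA or its reverse complement. Starts differ between transcripts, so the matches of CHAC1, ASNS and CXCL2 lie in the untranslated part of the first exon of a longer GENCODE 29 transcript and that of AARS partly in one of its neighbour DDX19B. These windows are 30 bases long, and the others stop short of untranslated exon sequence.
CHAC1 (chr15:40953251-40953280, plus strand): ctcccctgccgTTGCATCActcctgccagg
ATF3 (chr1:212565171-212565268, plus strand): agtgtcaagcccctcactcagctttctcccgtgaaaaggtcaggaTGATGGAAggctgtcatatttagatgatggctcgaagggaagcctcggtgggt
ASNS (chr7:97872458-97872487, minus strand): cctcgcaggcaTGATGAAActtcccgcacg
AARS (chr16:70289675-70289704, minus strand): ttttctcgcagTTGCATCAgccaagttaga

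An element bound by NF-kB was searched as GGG, any 2 bases and TTTCC on both strands. It was held by 1.96% of the 10808 promoters, by 6 of 9 differentially expressed chemokines and cytokines with a promoter, and by 1 of 6 differentially expressed NF-kB subunits and feedback genes. Among all tested members it was held by 6 of 19 and 6 of 23, so in the second list 5 of the 6 matches lie in genes that were not differentially expressed. The windows of IL6, CXCL1 and CXCL2 are shown with the match in capitals, and none of the matches shown here overlapped another of the 6 motifs searched. CXCL1 and CXCL2 both lie on chromosome 4 and have nearly the same sequence where their windows overlap. The other 4 motifs were searched on both strands in the same way. The AP-1 element TGANTCA was held by 0 of 17 immediate early genes (4.15% of all promoters) and the antioxidant element TGACNNNGC by 4 of 17 NRF2 target genes (12% of all). The sterol element TCACNCCAC was held by 1 of 19 genes of sterol synthesis and uptake and 0 of 21 of fatty acid synthesis (0.87% of all), and the heat shock element, GAA, TTC and GAA with 2 bases between neighbours, by 2 of 17 heat shock genes (0.315% of all), neither of them differentially expressed. A match describes the letters and does not show binding.
IL6 (chr7:22727082-22727146, plus strand): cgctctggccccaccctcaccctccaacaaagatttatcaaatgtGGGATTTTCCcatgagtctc
CXCL1 (chr4:73869269-73869368, plus strand): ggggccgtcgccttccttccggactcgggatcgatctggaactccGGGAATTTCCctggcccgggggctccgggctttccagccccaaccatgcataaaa
CXCL2 (chr4:74099254-74099283, minus strand): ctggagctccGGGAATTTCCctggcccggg

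The stress factors induced with ATF4 had the highest median change among the 38 lists. Of 16 tested stress factors, 15 rose, 11 of them differentially expressed, none fell, and their median log2 fold change was 1.83. ATF4 itself stood at 299.7, 303 and 294 CPM in vehicle and 462, 496 and 479 CPM in RSL3-R libraries, a log2 fold change of 0.68 (SE 0.05, adjusted p = 2.19e-07). CHAC1 (ENSG00000128965, chromosome 15, 40952962 to 40956519), an enzyme that degrades glutathione, went from 7.03, 6.61 and 5.305 CPM to 91.9, 91.9 and 88.2 CPM (log2 fold change 3.84, SE 0.13, adjusted p = 9.09e-11). GDF15 (ENSG00000130513, chromosome 19, 18374731 to 18389176), a secreted stress hormone that acts on appetite, went from 9.42, 9.94 and 10.4 CPM to 156, 167 and 164 CPM (log2 fold change 4.03). In both genes the groups were far apart and the libraries of a group close together. INHBE, which encodes an activin subunit, had at most 3 counts in each vehicle library and 6.58, 5.84 and 6.49 CPM in the RSL3-R libraries. From counts summed over each group, INHBE was 44.3-fold higher, with an exact interval of 21.2 to 111.1-fold that covers counting error only. ATF3, a further stress-induced factor, stood at 4.29, 6.55 and 4.56 CPM in vehicle and 16.2, 19.9 and 16.8 CPM in RSL3-R libraries. ATF3 did not pass the test against erastin-R cells (log2 difference 0.01, adjusted p = 0.965). Of the 16 stress factors, 13 were higher and 2 lower than there at an adjusted p under 0.05 (22.3% and 26.9% of all genes). Differentially expressed and higher than there were 7 (6.86% of all genes), and the median log2 difference was 0.91. CHAC1 was higher than in erastin-R cells by 1.60 on the log2 scale (adjusted p = 9.25e-08).

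Enzymes of amino acid supply rose and fell. Among enzymes, 10 of 22 tested were differentially expressed and higher and 2 lower (median 0.39). In erastin-R cells 4 were higher and 1 lower than in vehicle by the same rule (median 0.37). ASNS, asparagine synthetase, went from 2.09, 1.73 and 2.097 CPM to 27.3, 29.02 and 26.4 CPM (log2 fold change 3.80, SE 0.13), with 40.6% of its 50-base words shared with a readthrough gene, so its level is uncertain. CTH, which makes cysteine from cystathionine, stood at 3.58, 3.27 and 5.12 CPM in vehicle and 28.3, 31.5 and 29.9 CPM in RSL3-R libraries (log2 fold change 2.90, adjusted p = 1.8e-09). Neither ASNS nor CTH passed the test against erastin-R cells (log2 differences -0.01, adjusted p = 0.955, and 0.26, adjusted p = 0.0804). PHGDH, the first enzyme of serine synthesis from glucose, rose from 17.7, 18.7 and 19 CPM to 87.7, 86.3 and 88.02 CPM (log2 fold change 2.24, SE 0.08). SHMT1, the cytosolic enzyme that turns serine into glycine and one-carbon units, moved the other way, from 31.95, 30.4 and 32.1 CPM to 7.99, 9.57 and 8.77 CPM (log2 fold change -1.84, SE 0.10, adjusted p = 3.47e-09). PYCR3, an enzyme of proline synthesis, also fell (log2 fold change -1.14).

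Of 20 tested amino acid transporters, 12 rose and 1 fell, and 5 were differentially expressed and higher. SLC7A11 (ENSG00000151012, chromosome 4, 138164097 to 138242349), the cystine carrier that erastin blocks, stood at 30.1, 30.2 and 31.3 CPM in vehicle and at 178, 178 and 172 CPM in RSL3-R libraries (log2 fold change 2.53, SE 0.06, adjusted p = 9.93e-12). SLC1A4, a carrier of alanine, serine and cysteine, went from 6.14, 5.81 and 6.05 CPM to 31.01, 29.3 and 30.6 CPM (log2 fold change 2.33), and the glycine carrier SLC6A9 from 10.6, 11.2 and 10.7 CPM to 27.9, 29.6 and 25.5 CPM (log2 fold change 1.35). Both also stood above erastin-R cells, by log2 differences of 1.68 (adjusted p = 6.52e-08) and 1.55 (adjusted p = 1.79e-07), whereas SLC7A11 was lower than there (log2 difference -0.23, adjusted p = 0.00371).

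Among the 20 cytosolic aminoacyl-tRNA synthetases, which load tRNAs with amino acids, 12 rose, 4 fell and 8 were differentially expressed, all of them higher. WARS, the tryptophan enzyme, stood at 104, 112 and 109 CPM in vehicle and 361, 362 and 387 CPM in RSL3-R libraries (log2 fold change 1.77, SE 0.06). The serine enzyme SARS went from 151, 158 and 158 CPM to 503, 502 and 525 CPM (log2 fold change 1.71, adjusted p = 7.85e-11), and the glycine enzyme GARS from 174, 176 and 190.4 CPM to 577, 560.1 and 586 CPM (log2 fold change 1.67). AARS, the alanine enzyme whose promoter is shown above, had a log2 fold change of 1.38. Against erastin-R cells, WARS was higher by 1.15 (adjusted p = 1.03e-08) and SARS by 0.95 (adjusted p = 1.82e-08) on the log2 scale. Genes of the endoplasmic reticulum (ER) were mixed, with 11 of 23 higher and 7 lower at an adjusted p under 0.05. Their log2 fold changes ran from -0.98 to 1.85, with a median of 0.07, and the genes named here are all among those that rose. ERN1, the stress sensor IRE1, rose from 28.4, 29.03 and 27.3 CPM to 101, 105 and 99.5 CPM (log2 fold change 1.85), DNAJB9 and HERPUD1 had log2 fold changes of 1.58 and 1.20, and the chaperone HSPA5 rose by 0.78 on the log2 scale.

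**Figure D1:**
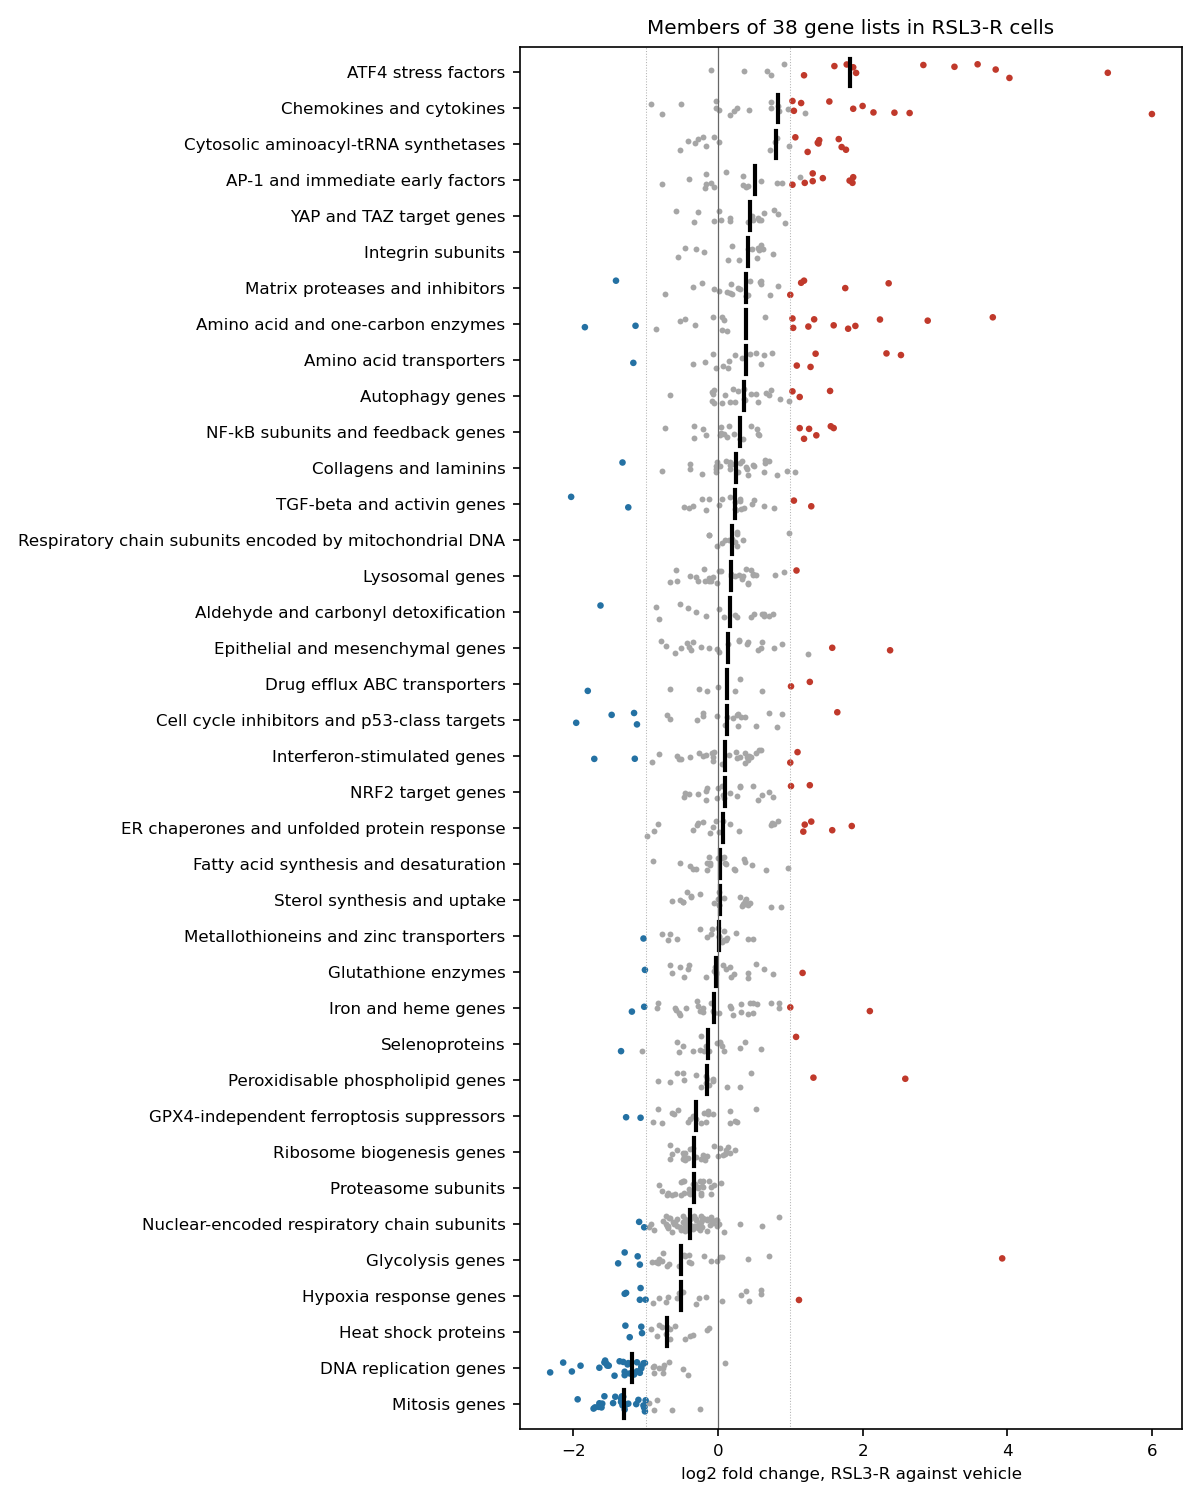
Log2 fold change of each tested member (points) of 38 gene lists in RSL3-R against vehicle cells, with the list's median as a black bar, red and blue for differentially expressed members that were higher and lower, grey for the others, and dotted lines at 1 and -1. ATF4 stress factors have the highest median (1.83) and mitosis genes the lowest (-1.30).

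Mitosis and DNA replication genes had the lowest median changes among the 38 lists. All 34 mitosis genes fell, 29 of them differentially expressed (median -1.30), and 37 of 38 DNA replication genes fell, 27 of them differentially expressed (median -1.19). CCNB1, the cyclin of entry into mitosis, stood at 320.3, 331 and 327 CPM in vehicle and 127, 117 and 123 CPM in RSL3-R libraries (log2 fold change -1.42, SE 0.06, adjusted p = 2.73e-10). The proliferation marker MKI67 went from 704, 723 and 802 CPM to 235, 247 and 254 CPM (log2 fold change -1.60), KIF20A, a motor protein of cell division, from 203, 209 and 210.04 CPM to 52.2, 52.6 and 57.2 CPM (log2 fold change -1.94), and CDC20, which activates the anaphase-promoting complex, from 212, 204 and 203 CPM to 59.2, 64.6 and 64.2 CPM (log2 fold change -1.72). For each of these genes the highest RSL3-R value lay far below the lowest vehicle value. Groups that do not overlap were a condition for naming the largest changes of a list, so for those genes the gap is no separate support.

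In DNA replication, RRM2, a subunit of ribonucleotide reductase, went from 89.96, 91.2 and 89.1 CPM to 21.1, 22.5 and 23.1 CPM (log2 fold change -2.02, SE 0.07, adjusted p = 9.09e-11), and 20.2% of its 50-base words occur elsewhere. The S-phase transcription factor E2F2 went from 11.7, 10.7 and 10.8 CPM to 2.51, 1.49 and 2.63 CPM (log2 fold change -2.32), and MCM2 of the replicative helicase had a log2 fold change of -0.89. Among cell cycle inhibitors and genes of the p53 class, 9 of 23 rose and 9 fell. CDKN1A, the inhibitor p21, stood at 81.3, 79.5 and 75.1 CPM in vehicle and 88, 92.2 and 92.8 CPM in RSL3-R libraries, which did not pass the test (log2 fold change 0.21, adjusted p = 0.0715). The inhibitors CDKN2C and CDKN2D fell, CDKN2C from 91.7, 91.2 and 83.8 CPM to 22.2, 24.1 and 22.1 CPM (log2 fold change -1.96), while BBC3, which encodes the apoptosis factor PUMA, rose from 7.63, 8.21 and 6.97 CPM to 21.1, 26.9 and 23.7 CPM (log2 fold change 1.65). Mitosis genes were also lower than in erastin-R cells, with 32 of 34 at an adjusted p under 0.05 in that direction (26.9% of all genes) and a median log2 difference of -0.86. CCNB1 differed by -0.94 (adjusted p = 2.64e-08) and CDC20 by -1.28 (adjusted p = 3.7e-09).

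The largest fold change of the named genes belonged to a cytokine of the TNF family. TNFSF15 (ENSG00000181634, chromosome 9, 114784635 to 114806126), also called TL1A, a ligand that activates T cells and restrains vessel growth, stood at 1.49, 1.17 and 1.604 CPM in vehicle and 87.7, 89 and 97.5 CPM in RSL3-R libraries (log2 fold change 6.0, SE 0.12, adjusted p = 9.49e-13). In erastin-R libraries it was at 0.774, 0.827 and 0.608 CPM, a log2 difference of 6.94 (SE 0.13, adjusted p = 5.07e-13). TNFSF18 (ENSG00000120337, chromosome 1, 173039960 to 173050963), the ligand of GITR, a receptor on T cells, went from 2.21, 2.41 and 2.41 CPM to 24.95, 25.3 and 25.9 CPM (log2 fold change 3.44, SE 0.14), with 0.715, 0.954 and 0.547 CPM in erastin-R libraries. TNFRSF9, the receptor 4-1BB, was low throughout, at 0.894, 0.803 and 0.3701 CPM in vehicle and 3.35, 2.18 and 1.46 CPM in RSL3-R libraries (log2 fold change 1.74, adjusted p = 0.00473). The cytokine receptor IL21R went from 0.417, 0.988 and 0.7402 CPM to 5.54, 6.65 and 6.896 CPM (log2 fold change 3.15).

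Of 26 tested chemokines and cytokines, TNFSF15 included, 15 rose and 2 fell, and 10 were differentially expressed, all higher (median 0.83). CXCL8, which attracts neutrophils, stood at 12.2, 10.8 and 12.6 CPM in vehicle and 79.9, 67.99 and 75.6 CPM in RSL3-R libraries (log2 fold change 2.65, SE 0.09, adjusted p = 9.09e-11). IL6 went from 6.796, 5.93 and 4.87 CPM to 32.3, 31.3 and 31.9 CPM (log2 fold change 2.44), and CXCL1 and CXCL2, whose promoters are shown above, had log2 fold changes of 2.0 and 2.15. CXCL8 and IL6 were also higher than in erastin-R cells, by 1.12 (adjusted p = 1.81e-07) and 1.0 (adjusted p = 4.43e-06) on the log2 scale.

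Among NF-kB subunits and feedback genes, 13 of 25 rose, 6 of them differentially expressed, and 2 fell. NFKBIA, an inhibitor that NF-kB induces, stood at 77.4, 87.2 and 77.4 CPM in vehicle and 80.8, 83.2 and 85.2 CPM in RSL3-R libraries (log2 fold change 0.04, adjusted p = 0.663), and for TNFAIP3, the inhibitor A20, and BIRC3 the groups likewise overlapped (log2 fold changes 0.13 and -0.20). Other inhibitors moved, CYLD by 0.54 (adjusted p = 2.59e-05) and TNIP1 by 0.31 (adjusted p = 0.000521) upwards, while NFKBID had a log2 fold change of -0.73 (adjusted p = 0.00954), all 3 named after their values were seen. ICAM1, an adhesion molecule for leukocytes, stood at 70.8, 62.01 and 67.2 CPM in vehicle, 62.6, 63.5 and 64.3 CPM in erastin-R and 199, 208 and 201 CPM in RSL3-R libraries (log2 fold change 1.60, SE 0.06, against erastin-R 1.68, SE 0.06, adjusted p = 5.7e-10). NFKBIZ, a nuclear cofactor of NF-kB, rose from 71.1, 72.7 and 67.6 CPM to 185, 179.5 and 177 CPM.

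Immediate early factors rose in part, 14 of 24 with 8 differentially expressed. The list leaned lower than in erastin-R cells, with 12 members lower and 5 higher at an adjusted p under 0.05 (median log2 difference -0.33). Its median log2 fold change from vehicle was 0.51 for RSL3-R and 0.80 for erastin-R. KLF4, a zinc finger factor, went from 39.2, 34.6 and 37.3 CPM to 132, 141 and 132 CPM (log2 fold change 1.86) and stood above erastin-R cells by 1.65 (adjusted p = 3.55e-09), and EGR1 went from 104, 99.7 and 92.8 CPM to 334, 364 and 346 CPM (log2 fold change 1.82). FOSL1, an AP-1 subunit, overlapped between the groups (log2 fold change -0.05, adjusted p = 0.495). PTGS2, the prostaglandin-forming cyclooxygenase that is widely used as a marker of ferroptosis, stood at 5.19, 4.63 and 4.56 CPM in vehicle, 10.1, 10.8 and 11.6 CPM in erastin-R and 29.98, 28.9 and 27.6 CPM in RSL3-R libraries (log2 fold change 2.59, SE 0.11, adjusted p = 4.94e-10).

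**Figure D2:**
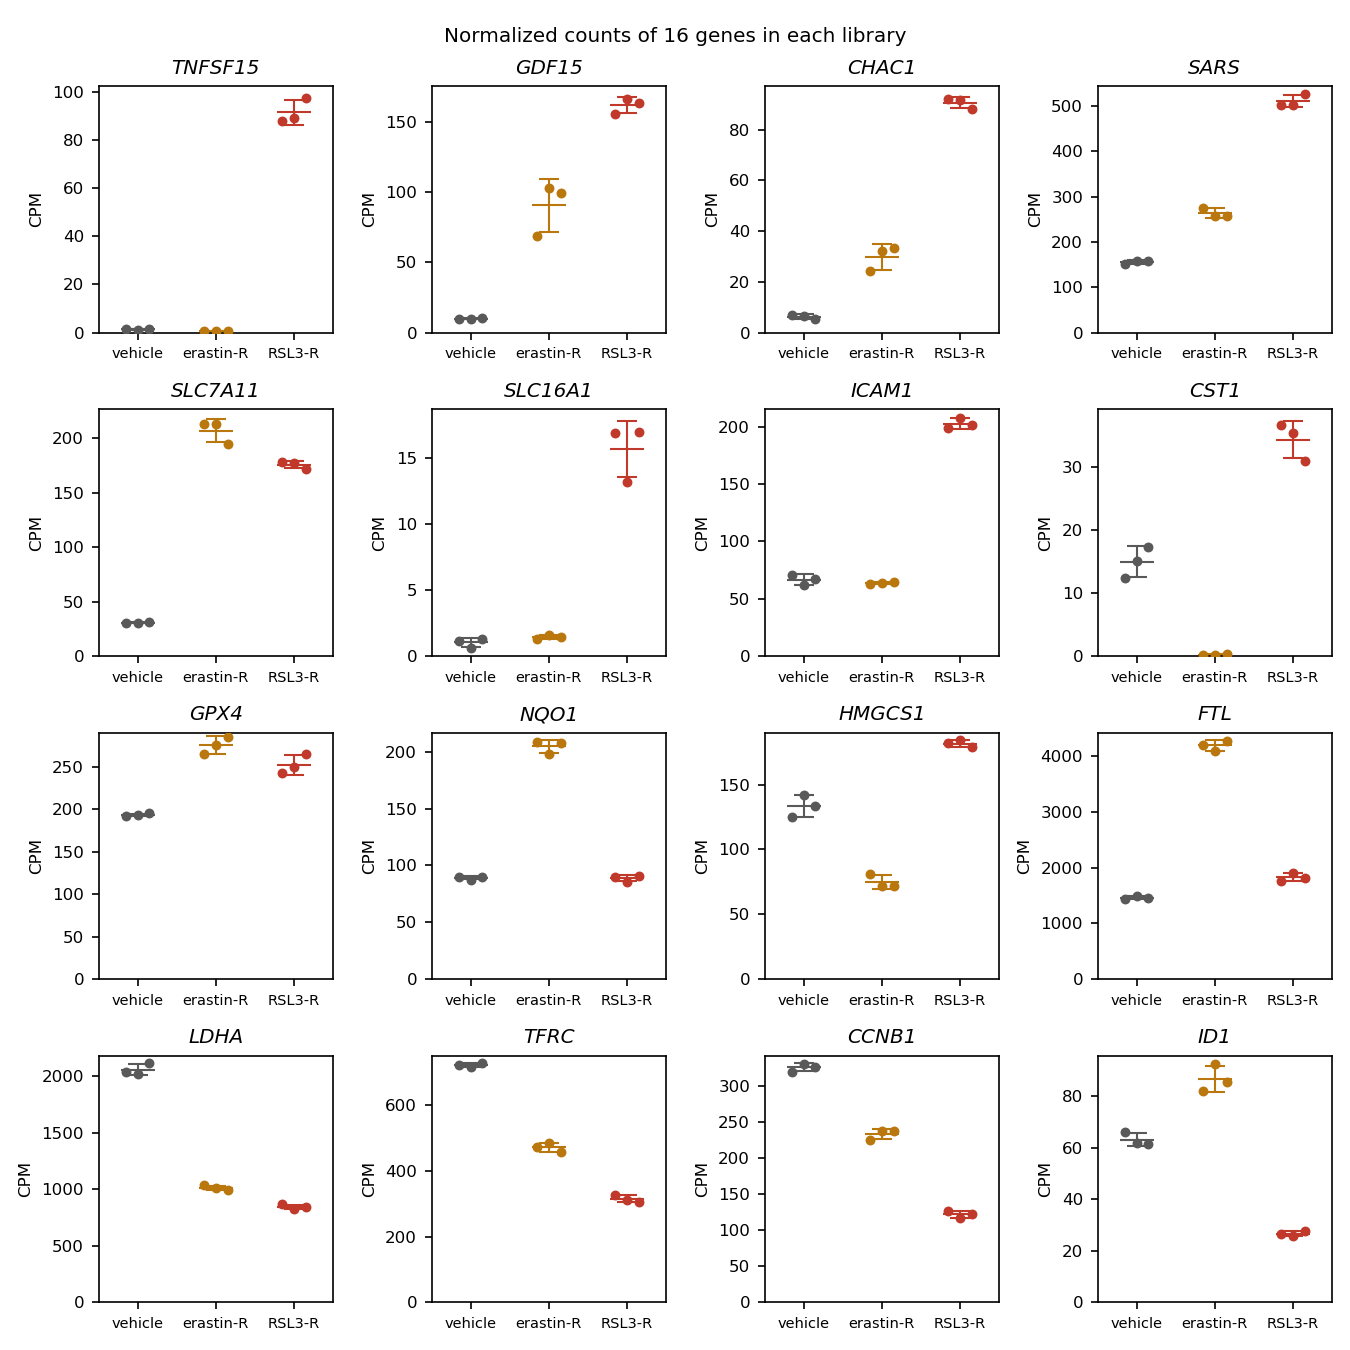
Normalized counts (CPM, linear axes from 0) of 16 genes in each library, with the mean and SD of the 3 libraries of each group. TNFSF15, SLC16A1 and ICAM1 are high in RSL3-R libraries alone among the 3 groups, whereas NQO1 lies at the vehicle level and FTL near it in RSL3-R cells and both are high in erastin-R cells.

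The targets of NRF2, which induces antioxidant genes when its repressor KEAP1 is modified, separated RSL3-R from erastin-R cells. Against vehicle, 9 of 23 rose and 2 fell in RSL3-R cells (median 0.09 on the log2 scale). Against erastin-R, 17 of 23 were lower at an adjusted p under 0.05 and 8 were differentially expressed and lower (3.48% of all genes were), with a median log2 difference of -0.68. NQO1, a quinone reductase, stood at 89.8, 87.5 and 90.1 CPM in vehicle, 90, 85.6 and 90.6 CPM in RSL3-R and 209, 198 and 208 CPM in erastin-R libraries (log2 difference -1.21, SE 0.06, adjusted p = 3.04e-09). GCLM, a subunit of the first enzyme of glutathione synthesis, fell slightly against vehicle, from 61.2, 67.8 and 69.5 CPM to 53.96, 48.1 and 48.5 CPM (log2 fold change -0.40, adjusted p = 0.000696), and was at 157, 179 and 169.7 CPM in erastin-R libraries (log2 difference -1.75). HMOX1, heme oxygenase, rose by 0.49 against vehicle and lay lower than in erastin-R cells by a log2 difference of -1.04 (adjusted p = 4.04e-06).

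The gene GPX4, which encodes the protein that RSL3 binds, had slightly more RNA in RSL3-R cells, and protein was not measured in these data. Its RNA stood at 192, 193 and 195 CPM in vehicle and 242, 249.6 and 265 CPM in RSL3-R libraries, with no overlap (log2 fold change 0.38, SE 0.06, adjusted p = 7.37e-05), and at 265, 276 and 285 CPM in erastin-R libraries (log2 difference -0.13, adjusted p = 0.0779). Among 20 selenoproteins 4 rose and 5 fell. MSRB1, a methionine sulfoxide reductase, fell from 19.3, 20.6 and 18.8 CPM to 6.64, 9.07 and 7.42 CPM (log2 fold change -1.34) and TXNRD3, a thioredoxin reductase, rose from 7.33, 7.41 and 7.896 CPM to 17.5, 15.5 and 14.96 CPM (log2 fold change 1.08). Of the 23 genes that restrain ferroptosis without GPX4, 1 rose and 14 fell (median -0.31). AIFM2, the ubiquinone reductase FSP1, stood at 33.9, 32.4 and 30.8 CPM in vehicle, 22.8, 27.9 and 23.8 CPM in RSL3-R and 42.3, 41.2 and 45.6 CPM in erastin-R libraries (log2 fold change -0.38, adjusted p = 0.00308, against erastin-R -0.79, adjusted p = 8.45e-06). GCH1, which starts tetrahydrobiopterin synthesis, did not pass the test (log2 fold change -0.17, adjusted p = 0.446), and MBOAT1, a phospholipid acyltransferase, fell (log2 fold change -1.27, adjusted p = 0.00104).

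Genes that supply iron and peroxidisable lipid moved in different directions. Of 33 iron and heme genes, 13 rose and 13 fell. TFRC, the transferrin receptor that brings in iron, went from 722, 715 and 729.7 CPM to 328, 312 and 307 CPM (log2 fold change -1.19, SE 0.05, adjusted p = 7.31e-10). The ferritin chains that store iron rose modestly, FTL from 1443, 1492 and 1454 CPM to 1754, 1897 and 1816 CPM (log2 fold change 0.32) and FTH1 from 455, 427 and 370.5 CPM to 649, 801 and 633 CPM (log2 fold change 0.73), and both were lower than in erastin-R cells, by log2 differences of -1.20 (adjusted p = 1.92e-09) and -1.40 (adjusted p = 5.16e-07). LCN2, a secreted protein that binds iron-carrying siderophores, went from 1.13, 2.1 and 1.23 CPM to 6.12, 6.21 and 6.78 CPM (log2 fold change 2.10). Of 18 tested genes of peroxidisable phospholipids 3 rose and 6 fell (median -0.16). Among those that rose, ACSL4, which activates the polyunsaturated fatty acids that peroxidise, changed by 0.31 (SE 0.07, adjusted p = 0.00244), and the lipoxygenase ALOX5 by 1.32 from low levels of 1.19, 1.17 and 1.23 CPM to 2.71, 3.05 and 3.27 CPM.

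Sterol genes changed little in size against vehicle and lay above erastin-R cells. Of 25 sterol genes, 11 rose and 6 fell against vehicle and none was differentially expressed, while 22 were higher than in erastin-R cells at an adjusted p under 0.05 (22.3% of all genes were) with a median log2 difference of 0.51. HMGCS1, an early enzyme of the mevalonate pathway, stood at 125, 142 and 133 CPM in vehicle, 182, 184 and 179 CPM in RSL3-R and 80.9, 72.1 and 71.7 CPM in erastin-R libraries (log2 fold change 0.44, SE 0.07, against erastin-R 1.28, SE 0.07, adjusted p = 8.95e-09). Of the desaturases, SCD, which makes monounsaturated fatty acids, rose from 889.8, 918 and 941 CPM to 1187, 1189.8 and 1178 CPM (log2 fold change 0.37, SE 0.05, adjusted p = 2.85e-05), whereas FADS2, which acts on polyunsaturated ones, fell from 463, 442 and 437 CPM to 352, 369 and 360.01 CPM (log2 fold change -0.31, SE 0.07, adjusted p = 0.00279). Both were higher than in erastin-R cells, SCD by 1.05 (adjusted p = 3.17e-09) and FADS2 by 0.86 (adjusted p = 7.29e-07). OLAH, a thioesterase that releases medium-chain fatty acids from the fatty acid synthase, stood at 4.29, 3.71 and 4.56 CPM in vehicle, 1.31, 1.53 and 1.16 CPM in erastin-R and 30.7, 29.02 and 33.7 CPM in RSL3-R libraries (log2 fold change 2.89, SE 0.13, against erastin-R 4.54).

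Most glycolysis genes fell while the lactate carrier SLC16A1 rose. Of 26 genes, 18 fell and 3 rose (median -0.51). LDHA, lactate dehydrogenase, went from 2031, 2021 and 2114 CPM to 865, 825 and 840.5 CPM (log2 fold change -1.29, SE 0.05, adjusted p = 2.73e-10), and SLC2A1, the glucose carrier, from 459.8, 456 and 471 CPM to 279, 291 and 295 CPM (log2 fold change -0.68). SLC16A1 (ENSG00000155380, chromosome 1, 112911847 to 112957013), the monocarboxylate carrier MCT1, stood at 1.13, 0.618 and 1.295 CPM in vehicle, 1.31, 1.59 and 1.398 CPM in erastin-R and 16.8, 13.2 and 16.9 CPM in RSL3-R libraries (log2 fold change 3.93, SE 0.21, adjusted p = 4.83e-09, against erastin-R 3.44, adjusted p = 2.12e-08). Hypoxia response genes fell in 14 of 22 cases and rose in 6. EGLN3, an oxygen sensor, went from 18.4, 17.7 and 18.3 CPM to 8.38, 6.59 and 7.25 CPM (log2 fold change -1.29), but the secreted factors STC1 and VEGFA rose, with log2 fold changes of 1.12 and 0.43. KHK, which phosphorylates fructose, had the lowest fold change of the named genes, from 2.15, 2.903 and 2.34 CPM to 0.451, 0.186 and 0.117 CPM (log2 fold change -3.28, SE 0.42, adjusted p = 1.92e-05). In RSL3-R replicates 2 and 3 a level of 3 counts is 0.1873 and 0.1737 CPM, so the size of this fall is uncertain.

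Most nuclear-encoded genes of the respiratory chain fell. Of 72 nuclear-encoded subunits 50 fell and 2 rose (median -0.39), and of the 13 subunits encoded by mitochondrial DNA 4 rose (23.8% of all genes did), and none fell or was differentially expressed (median 0.19). MT-CO1, a subunit of cytochrome oxidase, had a log2 fold change of 0.26 (adjusted p = 0.0358), which was 0 after quantile normalization, and a log2 difference of 1.07 from erastin-R cells (adjusted p = 1.27e-06). The erastin-R libraries differed among themselves in mitochondrial reads, with 7.95% in replicate 1 and 5.55% and 5.84% in replicates 2 and 3.

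Many protein folding and turnover genes fell and autophagy genes rose. In the list of heat shock proteins, cytosolic but for the mitochondrial pair HSPD1 and HSPE1, no gene rose and 16 of 18 fell (median -0.71). HSP90AA1, the inducible HSP90, went from 1881, 1934 and 2067 CPM to 950.2, 911 and 967 CPM (log2 fold change -1.06; -0.88 after quantile normalization), and HSPE1, the cofactor of the mitochondrial chaperonin, from 41.3, 37.5 and 40.1 CPM to 18.8, 16.3 and 15.9 CPM (log2 fold change -1.22). HSPE1 lies head to head with HSPD1, and 14.2% of its exon length overlaps that gene on the opposite strand. Of 31 proteasome subunits 23 fell and none rose, and of 28 ribosome biogenesis genes 16 fell and none rose, and in neither list was a gene differentially expressed. Among 26 autophagy genes 15 rose and 1 fell. MAP1LC3B, which coats autophagosomes, went from 98.2, 93.9 and 97.3 CPM to 205, 187 and 198 CPM (log2 fold change 1.03, SE 0.06), and the cargo receptor SQSTM1 from 293, 293 and 270.5 CPM to 534, 584 and 574 CPM (log2 fold change 0.98). CTSL, a lysosomal protease, rose by 1.08 on the log2 scale.

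Of 26 matrix proteases and inhibitors 17 rose and 1 fell. SERPINE2, an inhibitor of thrombin and urokinase, went from 23.8, 22.3 and 26.7 CPM to 123, 122 and 129 CPM (log2 fold change 2.36, SE 0.07, adjusted p = 7.45e-11), and was at 41.7, 42.7 and 42.5 CPM in erastin-R libraries. CST1 and CST4 are salivary-type cystatins that inhibit cysteine proteases, and CST1 had the widest gap from erastin-R cells among the named genes. It stood at 12.4, 15.1 and 17.3 CPM in vehicle, 0.179, 0.127 and 0.365 CPM in erastin-R and 36.6, 35.3 and 30.98 CPM in RSL3-R libraries (log2 fold change 1.20, log2 difference 7.21), and CST4 at 32.6, 33.8 and 27.3, then 3.45, 2.48 and 2.37 and 74.8, 79.1 and 75.8 CPM in the same order. They are closely related copies, with 23.6% and 30.2% of their 50-base words shared, so the split between them is uncertain. MMP1, a collagenase, had a log2 fold change of 1.19 (adjusted p = 0.000193), and the protease ADAMTS15 fell from 42.6, 36.99 and 36.02 CPM to 15.1, 15.4 and 13.1 CPM.

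The list of epithelial and mesenchymal genes had no common direction: of 25 tested 10 rose and 8 fell, and 2 junction genes that were low in vehicle cells were differentially expressed. CLDN1, a tight junction protein, went from 2.802, 3.21 and 3.33 CPM to 16.4, 13.5 and 18.8 CPM (log2 fold change 2.38, SE 0.17, adjusted p = 6.27e-08), and CDH1, E-cadherin, from 0.894, 0.865 and 1.67 CPM to 3.804, 3.29 and 3.21 CPM (log2 fold change 1.58, SE 0.33, adjusted p = 0.0013). The keratin KRT8 fell (log2 fold change -0.79, adjusted p = 1.87e-07). VIM did not pass the test (log2 fold change -0.13, adjusted p = 0.108), and SNAI2, a repressor of epithelial genes, fell from 8.82, 9.39 and 8.33 CPM to 5.22, 5.72 and 6.49 CPM. ID1 and ID3, targets of BMP signalling that block differentiation factors, fell, ID1 from 66.2, 62.1 and 61.4 CPM to 26.4, 25.8 and 27.9 CPM (log2 fold change -1.24, SE 0.07, adjusted p = 1.15e-08) and ID3 from 6.74, 5.99 and 7.03 CPM to 2.39, 0.994 and 1.46 CPM (log2 fold change -2.03, adjusted p = 1.41e-05), while the ligand BMP2 rose from 4.95, 5.003 and 4.19 CPM to 11.1, 13.5 and 9.99 CPM. ID1 was at 82.2, 92.4 and 85.6 CPM in erastin-R libraries (log2 difference -1.70, SE 0.07, adjusted p = 1.92e-09).

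Other structural lists leaned to higher levels. Among 15 tested integrin subunits 9 rose and 2 fell, and ITGB4, which anchors cells to laminin, went from 110.4, 109 and 104 CPM to 176, 188 and 184 CPM (log2 fold change 0.76, SE 0.07, adjusted p = 9.88e-07). Of 30 collagens and laminins 12 rose and 3 fell, with LAMB3, a chain of the laminin that ITGB4 binds, at 263, 253 and 249.7 CPM in vehicle and 488, 498 and 502 CPM in RSL3-R libraries (log2 fold change 0.96). Of 18 targets of YAP and TAZ 10 rose and 3 fell, among the former ANKRD1, at 218, 231 and 226 CPM and 424, 419 and 433 CPM (log2 fold change 0.92). TGF-beta and activin genes rose in 12 of 24 cases and fell in 3. Lysosomal genes (14 of 31 higher and 8 lower) and genes of aldehyde detoxification (8 and 6 of 18) rose more often than all genes (23.8%), with falls as well. The remaining lists were near the shares of all genes or split, with 5 of 23 glutathione enzymes higher and 7 lower, 6 and 5 of 22 genes of fatty acid synthesis and desaturation, 3 and 6 of 18 genes of peroxidisable phospholipids, and 2 and 5 of 20 metallothioneins and zinc transporters.

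Interferon-stimulated genes were mixed against vehicle, 11 of 32 higher and 7 lower (median log2 fold change 0.10). Compared with erastin-R cells 24 were higher and 3 lower at an adjusted p under 0.05 (22.3% and 26.9% of all genes), with a median log2 difference of 0.64. In erastin-R cells 12 of these genes were differentially expressed and lower than in vehicle, and none higher (median -0.72). OAS3, an antiviral sensor of double-stranded RNA, fell from 23.1, 24.02 and 23.6 CPM to 6.38, 7.08 and 8.01 CPM (log2 fold change -1.71) and was at 3.34, 3.05 and 2.43 CPM in erastin-R libraries (log2 difference 1.28, adjusted p = 1.17e-05). IFI44L rose from 5.48, 5.68 and 4.56 CPM to 11.1, 10.01 and 12.6 CPM (log2 fold change 1.10, log2 difference 1.93). The drug efflux pumps gave no common direction. ABCB1 had at most 4 counts in a library, ABCC1 overlapped between the groups, and of 10 tested 3 rose and 3 fell. ABCC2 and ABCC3, which export conjugated organic anions, rose by 1.27 (adjusted p = 0.0001) and 1.01 (adjusted p = 5.28e-08) on the log2 scale, and ABCG2 fell from 2.38, 2.35 and 2.96 CPM to 0.387, 0.249 and 1.52 CPM (log2 fold change -1.80, SE 0.43, adjusted p = 0.00341).

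**Figure D3:**
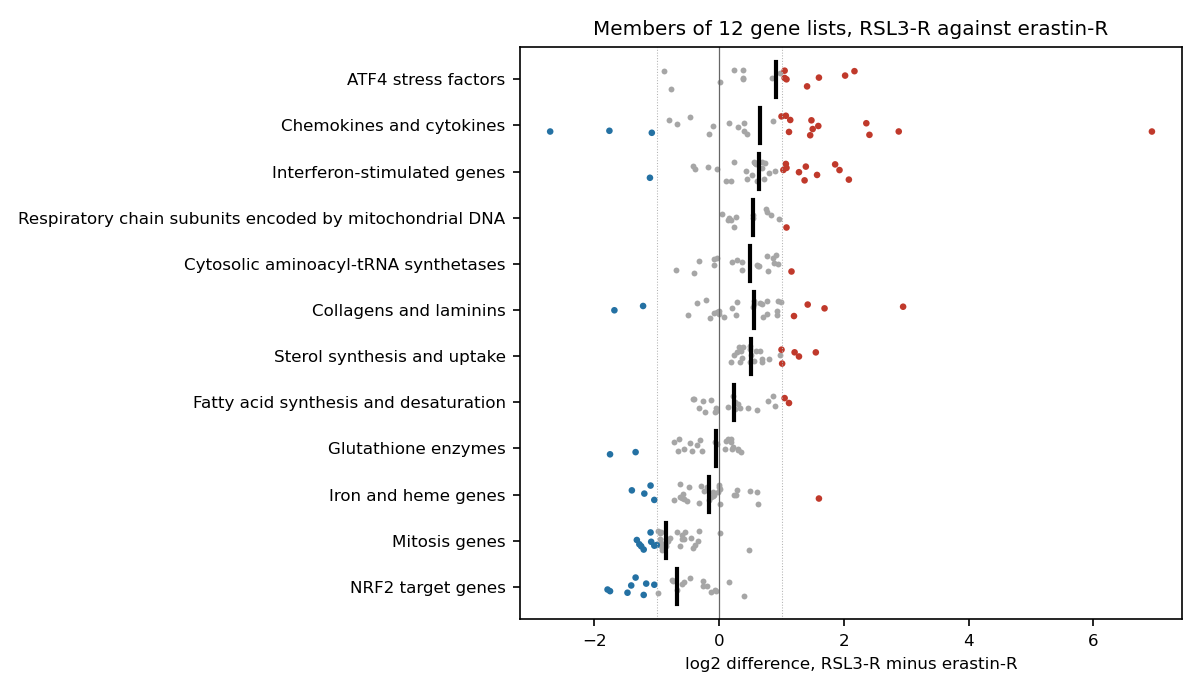
Log2 difference of each tested member (points) of 12 gene lists between RSL3-R and erastin-R cells, with the list's median as a black bar and colours as in the plot of 38 lists. NRF2 targets (median -0.68) and mitosis genes (-0.86) lie to the left, and ATF4 stress factors (0.91), chemokines and cytokines (0.66) and interferon-stimulated genes (0.64) to the right.

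In the direct comparison with erastin-R cells, 49.2% of genes had an adjusted p under 0.05 and 10.3% were differentially expressed, 6.86% higher and 3.48% lower in RSL3-R cells (1111 and 563 genes), while quantile normalization gave 822 and 644. A total of 443 genes were differentially expressed in the same direction in RSL3-R cells against both other groups, 310 higher and 133 lower. The 2 comparisons share the RSL3-R libraries. Among them, besides those above, SPX, a peptide hormone, went from 0.358, 0.185 and 0.0617 CPM in vehicle and 0.298, 0.954 and 0.729 CPM in erastin-R to 7.67, 6.96 and 6.55 CPM in RSL3-R libraries (log2 fold change 5.07, log2 difference 3.41), and ANKFN1 from 0.775, 0.741 and 0.987 and 1.13, 1.27 and 2.01 CPM to 14.2, 15.1 and 13.7 CPM. DPEP1, a dipeptidase that cleaves cysteinyl-glycine, moved the other way, from 1.37, 1.36 and 1.73 CPM in vehicle and 1.55, 1.85 and 1.58 CPM in erastin-R to 0.129, 0.186 and 0.526 CPM in RSL3-R libraries (log2 difference -2.50, adjusted p = 0.000224).

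Among other genes of the largest changes from vehicle, ANGPT4, a ligand of the vascular receptor TIE2, went from 0.358, 0.247 and 0.308 CPM to 3.48, 5.41 and 4.5 CPM, and DMGDH, a mitochondrial enzyme of choline breakdown, had 1, 3 and 0 counts in the vehicle libraries and was 20.9-fold higher (exact interval for counting error only, 7.88 to 78.7-fold). Among decreases, APLN, the peptide apelin, went from 5.54, 4.76 and 4.07 CPM to 0.516, 0.559 and 0.643 CPM (log2 fold change -3.04, SE 0.26), and TCF19, a nuclear factor of late G1, from 108, 109.7 and 102 CPM to 20.9, 20.5 and 21.7 CPM (log2 fold change -2.34, adjusted p = 8.02e-11). BOLA2B was among the largest increases by its fitted value, but its RSL3-R libraries read 4.13, 0.249 and 6.31 CPM and 91.8% of its 50-base words are shared with copies, so it is not interpreted.

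By class of gene, long non-coding RNAs leaned to higher levels. Of 1999 tested, 272 (13.6%) were differentially expressed and higher and 61 (3.05%) lower, against 607 (4.68%) and 549 (4.23%) of 12970 protein-coding genes. The median log2 fold change was 0.28 for long non-coding and -0.03 for protein-coding genes. Restricted to genes with a mean of at least 1 CPM, 172 of 1277 long non-coding genes (13.5%) were higher and 37 (2.90%) lower. Quantile normalization, an alternative chosen after seeing the data like this restriction, gave 163 higher (8.15%) and 88 lower (4.40%). Where such an RNA overlaps another gene on the opposite strand, its reads cannot be told from those of the partner, since the strand setting is not stated.

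**Figure D4:**
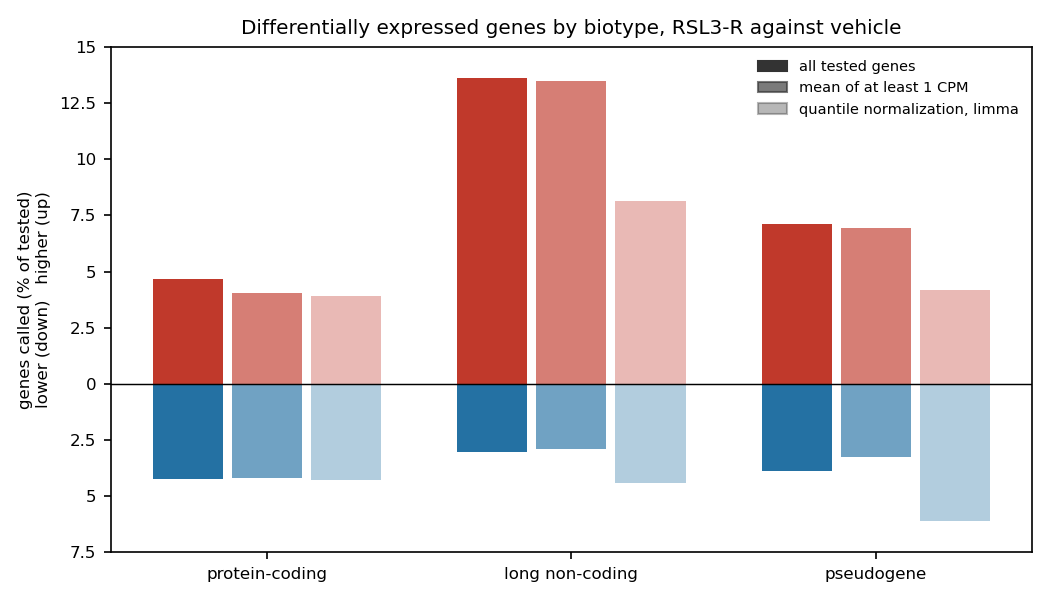
Percentage of tested genes differentially expressed in RSL3-R against vehicle cells, higher above 0 (red) and lower below 0 (blue), by class of gene and for 3 ways of counting (shades). Long non-coding RNAs show more higher than lower calls in each, 13.6% against 3.05% over all tested genes and 8.15% against 4.40% after quantile normalization.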

How the data were processed

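RNA-seq libraries of MDA-MB-231 cells (3 vehicle, 3 RSL3-R, 3 erastin-R) were grouped by treatment label. For each library the authors deposited a raw count per gene and an FPKM value, which was not used in any test. Per the submitters' processing notes reads were aligned with HISAT2 2.0.5 and counted with featureCounts 1.5.0-p3. Per the study's methods uniquely mapped reads in exons were counted, from poly(A) libraries. Whether counting used strand is not given in the sources used here. Identifiers and coordinates match GENCODE 29 on GRCh38.

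Counts were fitted with edgeR 4.0.16 in R 4.3.3 (TMM, filterByExpr, 1 quasi-likelihood model of all 9 libraries, no covariate), and p values were adjusted by Benjamini-Hochberg over 16188 genes. The coefficient of variation between replicates was 8.56%. For genes with at most 3 counts in every vehicle library, ratios of summed counts carry 95% Clopper-Pearson intervals. The fits were first tested on simulated data. Alternatives used DESeq2 1.42.0 and limma 3.58.1, other filters, single libraries left out and a replicate block. Overlap of exons, and of 50-base words in transcripts, was counted from the annotation.

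Genes named are fixed anchors of each list, up to 3 largest changes each way per list, the 10 largest changes each way overall and the 8 largest each way against erastin-R, past both thresholds and with groups not overlapping. The part analysed, its lists and this rule were chosen with earlier results of these data known.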

Additional observations from a re-analysis of the deposited data

How the results depend on the processing

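The 1635 differentially expressed genes of RSL3-R against vehicle stayed between 1294 (genes with a mean of at least 1 CPM, so fewer tested) and 1861 (no filter on low counts) over the other filters and tools, with 1447 after quantile normalization, 1567 from DESeq2, 1622 from the 6 libraries compared and 1729 at an unadjusted p. Without a minimum fold change the counts were 7879, 3850 higher and 4029 lower, and against erastin-R 7969, 3615 higher and 4354 lower. Leaving out 1 library in turn gave 1581 to 1638 genes (922 to 1026 higher, 574 to 683 lower), and against erastin-R 1514 to 2143, the latter without erastin-R replicate 1 (1046 to 1354 higher, 468 to 789 lower). Libraries with the same replicate number did not deviate together (correlations of -0.0225, 0.0243 and 0.0518), and the replicate block gave 1614 genes, 962 higher and 652 lower, and 1652 against erastin-R. Quantile normalization lowered the share of higher genes from 59.6% to 50.5%. Of 177 named genes tested, 18 lost and 2 gained the call of differential expression under some alternative and none reversed. Mitosis calls went from 29 to 23, and replication calls from 27 to 23, without RSL3-R replicate 1, and heat shock calls from 4 to 2 after quantile normalization, where the cause was not tested.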
